A study of Mus musculus with 6 samples.

Results

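Arg1, Retnla, Mrc1, Tgm2, Pdcd1lg2, Cdh1, Fn1 and Ch25h are known effector or marker genes of macrophages activated by IL-4, and their loci were described here by the binding of C/EBPα, IRF8 and JUNB. Peaks were assigned to a gene when it was the nearest one in the deposited annotation. This gave 169 peaks of 134964 in the 6 peak lists, and 8 genes of the 14930 that had at least 1 peak. The peaks merged into 65 separate regions.

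Each list came from ChIP-seq (chromatin immunoprecipitation followed by sequencing), which maps where a protein sits on the DNA. The cells were wild type mouse bone marrow-derived macrophages (BMDMs), primary macrophages grown from marrow of mice aged 8 to 12 weeks. All cells had 6 days of differentiation with L929 supernatant, a source of the macrophage growth factor M-CSF, and were left as control or exposed to IL-4 at 20 ng/ml for 1 h. Each factor had 1 control sample and 1 IL-4 sample, so no group had a replicate, no test was possible, and every difference below is between 2 single samples. Whether marrow of several mice was pooled was not given in the sources used here.

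IL-4 acts through its receptor and the kinases bound to it to phosphorylate STAT6, which enters the nucleus and binds palindromic TTC and GAA sites near target genes. C/EBPα and IRF8 are factors of the myeloid lineage that occupy macrophage enhancers before a signal arrives, and JUNB is an AP-1 subunit. The genes do different work: Arg1 encodes arginase 1, which breaks down arginine, Retnla a secreted resistin-like protein, Mrc1 the mannose receptor CD206, Tgm2 a protein cross-linking transglutaminase, Pdcd1lg2 the PD-1 ligand PD-L2, Cdh1 the adhesion protein E-cadherin, Fn1 the matrix protein fibronectin, and Ch25h the enzyme that makes 25-hydroxycholesterol.

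The sequences below show where the reported differences lie. They are 200 bp around the centre of the highest peak of each region, read 5′ to 3′ on the plus strand of mm10. Capitals mark matches, on either strand, to 1 of 6 letter patterns. These were TTCNNNNGAA or TTCNNNGAA (STAT6 type), TGAGTCA (AP-1), TTGCNNAA (C/EBP), GGAANNGAAA (ETS-IRF composite) and GAAANNGAAA (ISRE type). The patterns share GAA letters, so matches may overlap, and a match is a description of the letters and not a measured site. For each gene, the window of its highest-scoring region and that of its highest IL-4-only peak are shown where the score was at least 10, with 1 exception, and Fn1 had neither. The first 5 hold an IL-4-only peak.
Arg1 -2.9 kb, chr10:24930273-24930472: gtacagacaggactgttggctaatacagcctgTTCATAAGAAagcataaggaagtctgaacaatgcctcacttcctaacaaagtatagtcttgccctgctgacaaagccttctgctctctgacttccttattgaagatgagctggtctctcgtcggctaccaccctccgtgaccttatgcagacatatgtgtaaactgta
Mrc1 -24.8 kb, chr2:14204550-14204749: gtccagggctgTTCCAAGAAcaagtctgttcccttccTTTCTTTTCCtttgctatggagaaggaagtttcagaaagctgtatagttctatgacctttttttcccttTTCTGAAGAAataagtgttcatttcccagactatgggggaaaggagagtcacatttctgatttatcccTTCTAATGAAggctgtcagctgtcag
Pdcd1lg2 TSS, chr19:29410798-29410997: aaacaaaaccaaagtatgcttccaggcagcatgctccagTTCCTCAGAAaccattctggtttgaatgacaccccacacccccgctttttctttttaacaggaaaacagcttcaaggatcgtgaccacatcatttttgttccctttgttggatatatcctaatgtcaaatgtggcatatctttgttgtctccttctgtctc
Tgm2 +10.3 kb, chr2:158135958-158136157: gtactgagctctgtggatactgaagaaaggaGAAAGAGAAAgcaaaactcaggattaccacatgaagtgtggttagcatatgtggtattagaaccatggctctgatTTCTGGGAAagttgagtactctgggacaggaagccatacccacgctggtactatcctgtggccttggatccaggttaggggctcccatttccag
Ch25h +64.0 kb, chr19:34411014-34411213: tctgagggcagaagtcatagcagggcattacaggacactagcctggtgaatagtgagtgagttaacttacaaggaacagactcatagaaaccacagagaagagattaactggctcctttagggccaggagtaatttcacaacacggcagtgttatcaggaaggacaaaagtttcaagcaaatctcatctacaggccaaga
The next 6 are the highest-scoring regions, which had a peak in both conditions.
Retnla -11.0 kb, chr16:48831463-48831662: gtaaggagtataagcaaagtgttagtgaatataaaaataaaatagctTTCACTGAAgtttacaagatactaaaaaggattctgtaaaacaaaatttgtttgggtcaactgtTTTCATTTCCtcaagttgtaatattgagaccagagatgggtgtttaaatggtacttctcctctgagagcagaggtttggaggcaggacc
Cdh1 +9.0 kb, chr8:106612235-106612434: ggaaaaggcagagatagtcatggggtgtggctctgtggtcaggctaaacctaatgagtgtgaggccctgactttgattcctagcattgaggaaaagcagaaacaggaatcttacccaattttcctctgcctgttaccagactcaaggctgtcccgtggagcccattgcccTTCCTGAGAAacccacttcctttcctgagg
Arg1 +16.1 kb, chr10:24911317-24911516: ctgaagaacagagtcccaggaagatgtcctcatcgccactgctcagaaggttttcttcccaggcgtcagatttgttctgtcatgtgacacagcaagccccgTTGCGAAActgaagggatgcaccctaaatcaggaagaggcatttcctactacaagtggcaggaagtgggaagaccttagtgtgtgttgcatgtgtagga
Mrc1 -22.4 kb, chr2:14206887-14207086: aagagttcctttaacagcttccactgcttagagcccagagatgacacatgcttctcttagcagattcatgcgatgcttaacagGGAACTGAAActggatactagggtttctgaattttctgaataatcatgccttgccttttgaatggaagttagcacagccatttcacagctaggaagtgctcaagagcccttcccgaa
Tgm2 -20.4 kb, chr2:158166735-158166934: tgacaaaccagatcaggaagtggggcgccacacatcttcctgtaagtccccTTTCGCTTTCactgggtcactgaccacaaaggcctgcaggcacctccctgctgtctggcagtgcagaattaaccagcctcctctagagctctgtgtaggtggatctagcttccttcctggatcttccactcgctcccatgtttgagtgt
Pdcd1lg2 +20.0 kb, chr19:29430811-29431010: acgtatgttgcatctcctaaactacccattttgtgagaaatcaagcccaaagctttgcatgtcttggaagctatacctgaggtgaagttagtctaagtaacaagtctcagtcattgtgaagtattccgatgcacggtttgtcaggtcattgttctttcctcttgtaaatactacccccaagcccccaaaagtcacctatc
The last 2 were added after their values had been seen, as the largest score folds of IRF8 and C/EBPα at Pdcd1lg2.
Pdcd1lg2 +8.7 kb, chr19:29419498-29419697: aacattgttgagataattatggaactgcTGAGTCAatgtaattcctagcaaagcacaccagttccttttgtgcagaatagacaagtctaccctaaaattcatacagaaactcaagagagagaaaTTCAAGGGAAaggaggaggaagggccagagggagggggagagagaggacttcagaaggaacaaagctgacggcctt
Pdcd1lg2 +31.8 kb, chr19:29442574-29442773: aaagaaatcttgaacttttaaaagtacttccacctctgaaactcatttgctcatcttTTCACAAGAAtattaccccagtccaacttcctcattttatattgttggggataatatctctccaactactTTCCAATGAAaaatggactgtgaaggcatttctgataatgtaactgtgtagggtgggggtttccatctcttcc
A STAT6-type match was in 4 of the first 5 windows (not in Ch25h +64.0 kb), in 2 of the next 6 (Retnla -11.0 kb and Cdh1 +9.0 kb) and in both of the last. Regions not printed, among them Mrc1 -0.1 kb, Mrc1 +0.2 kb, Cdh1 +8.0 kb, Pdcd1lg2 +37.5 kb and Ch25h +67.7 kb, had IL-4-only peaks or higher scores without a STAT6-type match. The counts over all regions of the 8 genes are given further on.

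Distances are from the transcription start site (TSS), with negative values upstream. The peak score carries no stated unit and was read here, with some uncertainty, as the caller's significance, a −log10 q-value or p-value. On that reading it rises with sequencing depth, which is unknown, so a fold of scores was not taken as a fold of binding. A gene without a peak in a list may still have been bound below the caller's threshold. A peak was IL-4-only or control-only when no peak of the same factor in the other condition overlapped it by at least 1 bp. Peaks present in both conditions were paired, and a pair was called higher or lower after IL-4 when the scores differed by at least 1.5-fold. The whole C/EBPα lists held 24486 control and 24612 IL-4 peaks, the IRF8 lists 37525 and 42076, and the JUNB lists 3940 and 2325. The median score fold of all pairs was 0.997, 1.06 and 0.685 in the same order, so JUNB scores were lower after IL-4 across the genome. Peaks lay near 8 of 8 macrophage genes (such as Csf1r and Adgre1) and near 8 of 15 genes of other marrow cell types. Peaks near a gene are no measure of its expression.

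More C/EBPα and IRF8 peaks and fewer JUNB peaks were listed at the 8 genes after IL-4. The number of peaks was 34 in control and 45 with IL-4 for C/EBPα. The corresponding numbers were 33 and 46 (IRF8) and 7 and 4 (JUNB). Of the C/EBPα peaks after IL-4, 15 of 45 (33.3%) were IL-4-only, against 22.0% of all C/EBPα peaks. For IRF8, 14 of 46 (30.4%) were IL-4-only, the same share as over the whole list (30.4%). For JUNB, 2 of 4 were IL-4-only (all JUNB peaks, 39.2%). In the other direction, 3 of 34 C/EBPα control peaks (8.82%) were control-only, against 21.4% of all. None of the 33 IRF8 control peaks was control-only (0 of 33), against 21.4% of the list. For JUNB, 5 of 7 were control-only, close to the background of 64.2%. With the deposited gene assignment, the IL-4-only share of IRF8 at these genes was thus that of its list. The control-only shares of IRF8 and C/EBPα were below theirs. For IRF8 that share was 18.5% at other IL-4-response, 9.52% at classical activation, 22.9% at macrophage and 12.5% at other cell type genes. For C/EBPα it was 13.3%, 23.7%, 22.2% and 22.2% in that order. A control-only share below that of the list was thus not particular to the 8 genes. The counts depend on the gene assignment: with the nearest GENCODE TSS, non-coding ones included, C/EBPα had 20 control and 23 IL-4 peaks at the 8 genes, and IRF8 17 and 27. Of these IL-4 peaks, 6 of 23 were IL-4-only for C/EBPα and 11 of 27 for IRF8, the latter above the share of its list. With protein-coding GENCODE TSSs alone, 18 of 64 IRF8 peaks were IL-4-only, slightly below that share. Control-only shares of both factors stayed below those of their lists with either assignment.

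Scores of paired peaks leaned to the IL-4 side for C/EBPα and IRF8. Of 30 C/EBPα pairs, 10 (33.3%) were at least 1.5-fold higher after IL-4 (all pairs, 17.7%) and 3 at least 1.5-fold lower (all pairs, 17.8%), with a median fold of 1.22. Of 32 IRF8 pairs, 10 (31.2%) were higher (all pairs, 23.6%) and 2 (6.25%) lower (all pairs, 17.5%), with a median fold of 1.14. The IRF8 lean was not particular to the 8 genes, since the median fold was 1.11 at other IL-4-response genes, 1.23 at classical activation genes, 1.19 at macrophage genes and 1.35 at genes of other cell types. For C/EBPα the medians at the same lists were 1.09, 0.962, 1.12 and 1.03. The shares of C/EBPα pairs at least 1.5-fold higher were 31.0%, 3.45%, 15.4% and 14.3% in that order. The share at the 8 genes was thus close to that at other IL-4-response genes. JUNB had 2 pairs, of which 0 were higher (all pairs, 9.6%) and 2 lower (all pairs, 47.9%), with a median fold of 0.486. JUNB at these genes therefore differed in the direction of its whole list, on very few peaks.

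**Figure D1:**
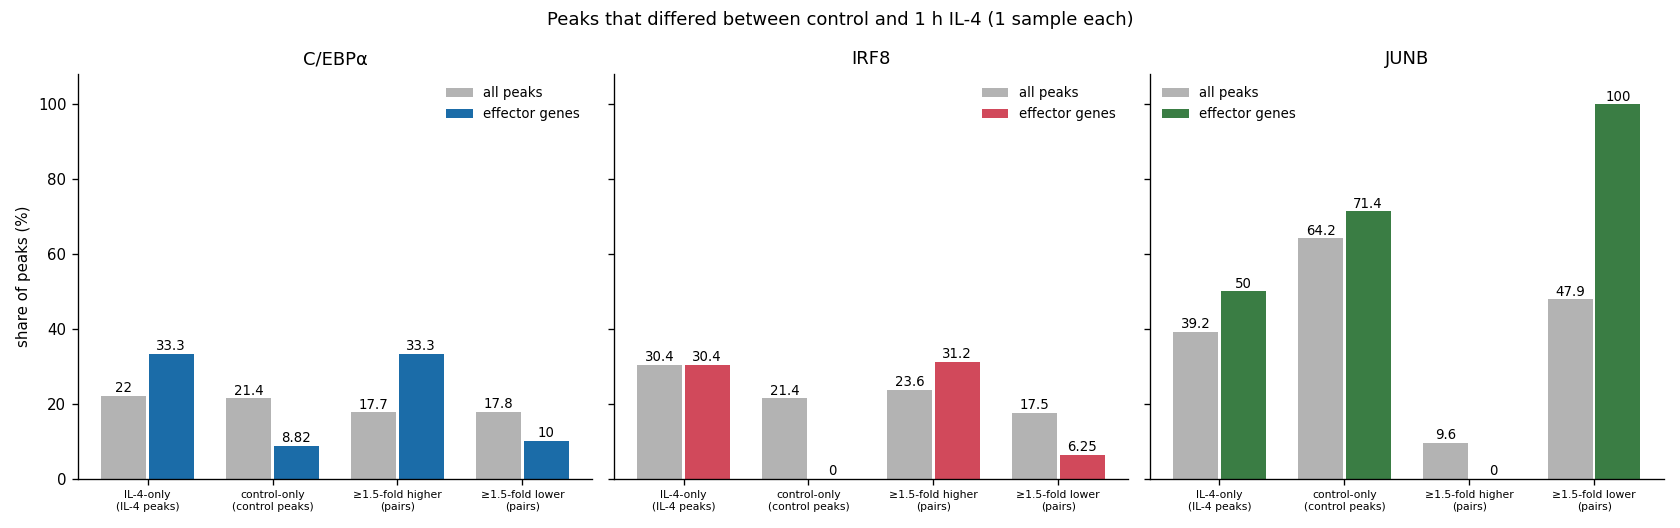
Share of peaks (percent, from 0) that were IL-4-only (of IL-4 peaks), control-only (of control peaks), or at least 1.5-fold higher or lower after IL-4 (of pairs), for the 8 genes (colour) and for all peaks (grey), 1 sample per list and so no error bars. C/EBPα pairs at the genes were higher in 33.3% against 17.7% of all pairs, and IRF8 control-only peaks numbered 0; the JUNB bars rest on 7 control peaks and 4 IL-4 peaks.

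**Figure D2:**
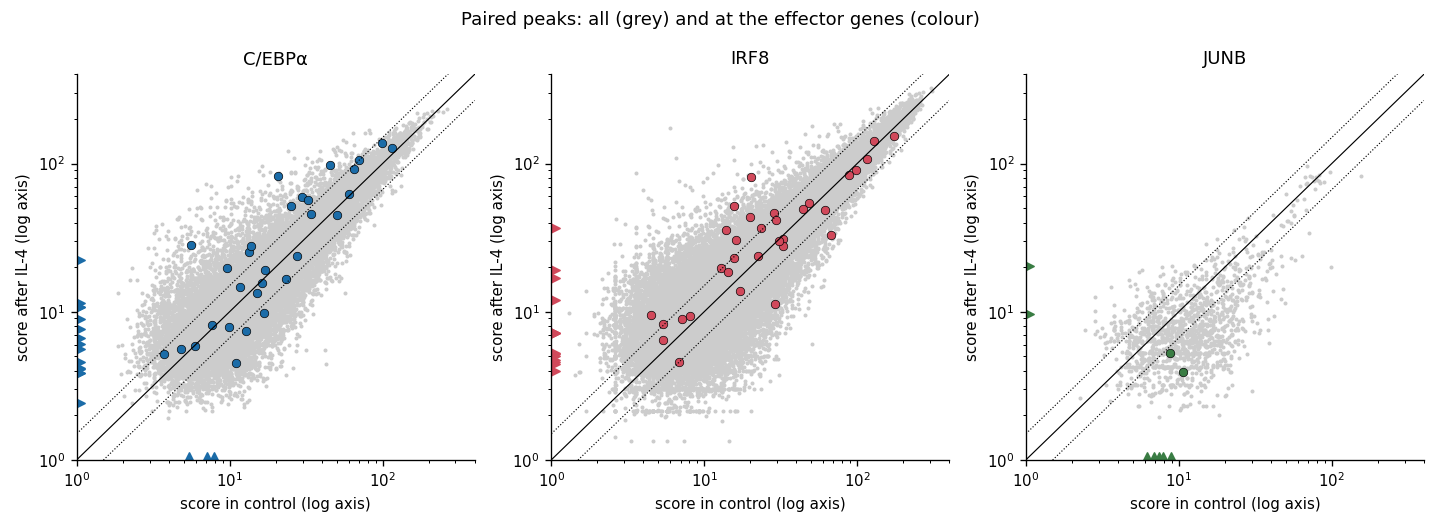
Score in control (x, log axis) and after IL-4 (y, log axis) for every paired peak (grey) and for pairs at the 8 genes (colour), with triangles on the axes for peaks listed in 1 condition. The solid line marks equal scores and the dotted lines a 1.5-fold difference; the C/EBPα and IRF8 points farthest above the lines are Pdcd1lg2 +31.8 kb, Cdh1 +9.0 kb and Retnla -11.0 kb.

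The regions were mostly distal: 31 of 65 were intergenic, 26 intronic, 4 promoter-TSS, 3 exonic and 1 at a transcription end, and 63 lay within 100 kb of the TSS. Upstream regions numbered 24, and 10 regions lay on an annotated repeat. No factor had a peak in control at 22 of the 65 regions, and none after IL-4 at 2. By gene, Ch25h had 14 regions, Pdcd1lg2 13, Mrc1 12, Arg1 9, Tgm2 8, Cdh1 4, Retnla 3 and Fn1 2.

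**Figure D3:**
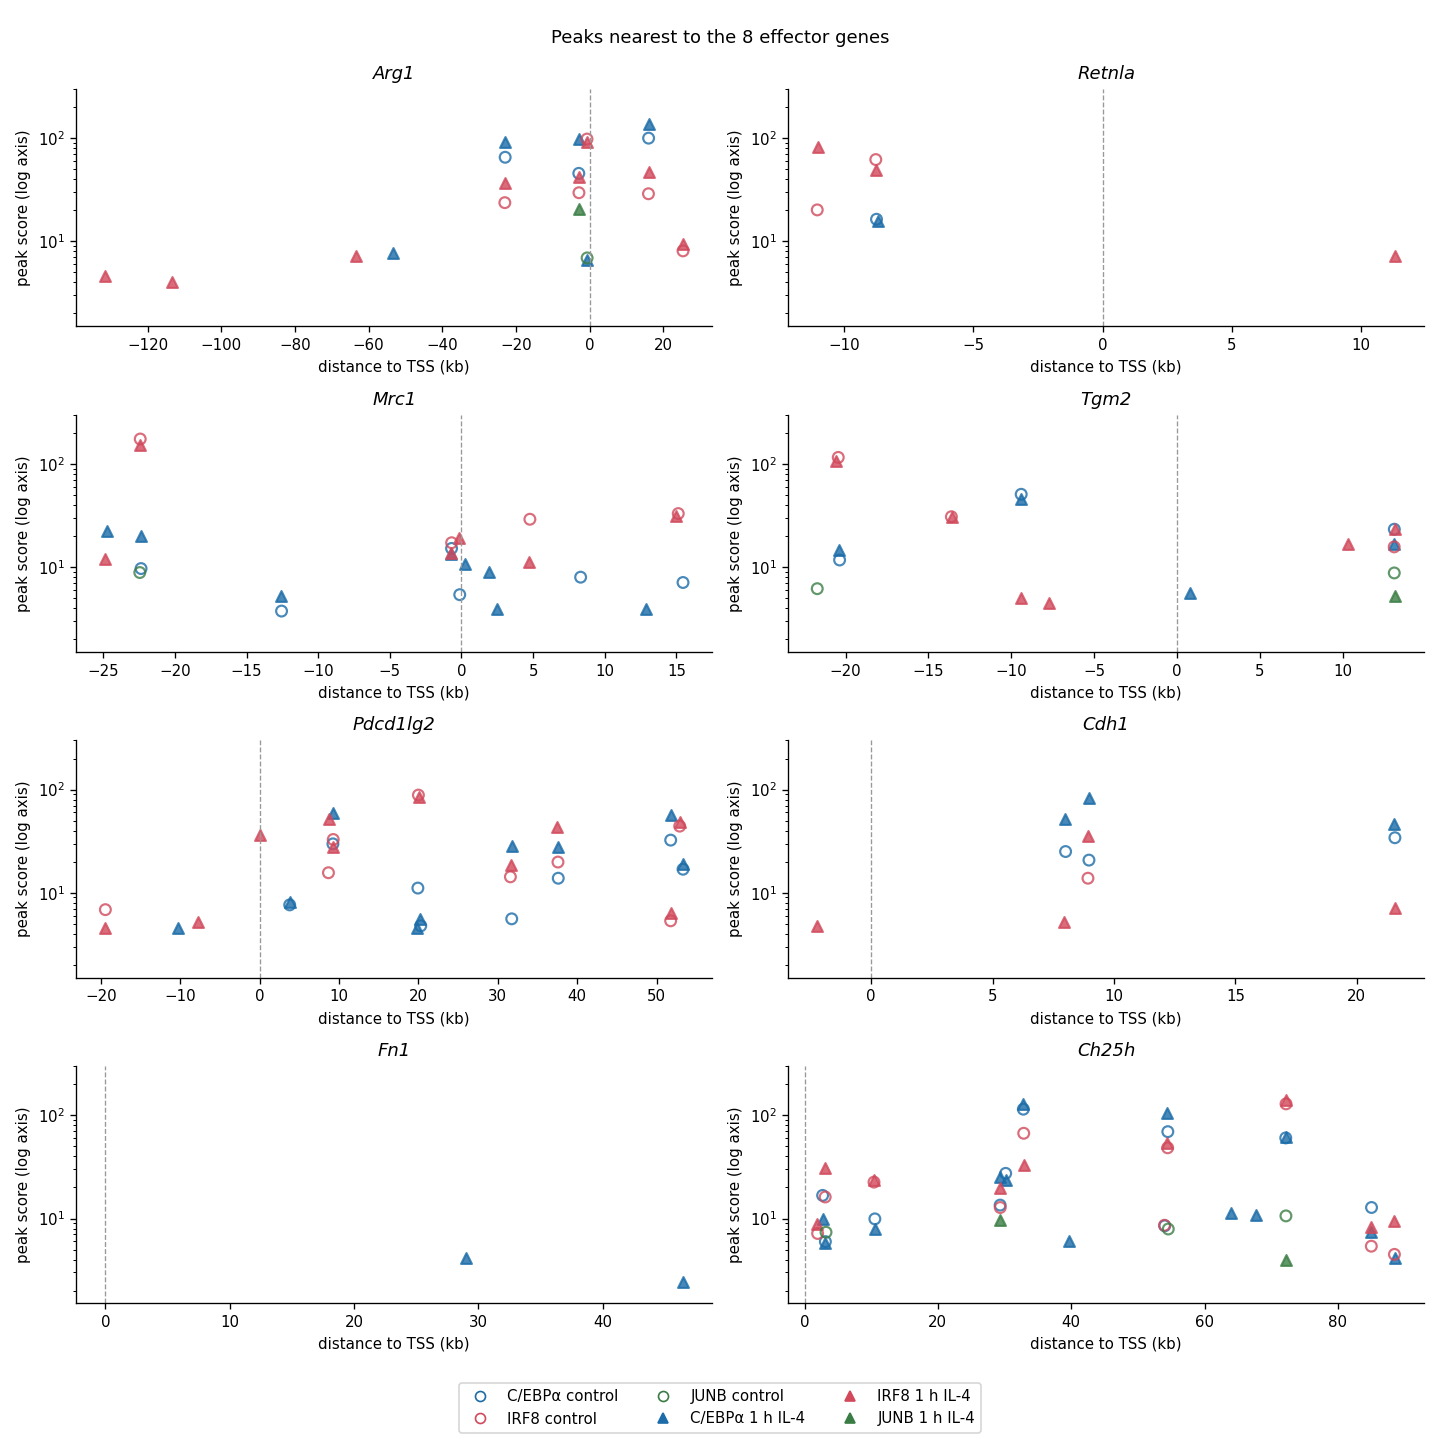
Every peak at the 8 genes by its distance to the TSS (x, kb, 0 marked by a dashed line) and its peak score (y, log axis), with control peaks as open circles and IL-4 peaks as filled triangles, coloured by factor. Arg1, Mrc1 and Pdcd1lg2 had peaks close to the TSS, Ch25h had peaks only downstream (1.9 to 88.4 kb), and Fn1 had 2 low C/EBPα peaks.

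Arg1 (chr10:24915207-24927470, minus strand) was the only one of the 8 genes with an IL-4-only JUNB peak scoring at least 10, beside peaks of C/EBPα and IRF8. In the intergenic region 2.9 kb upstream, C/EBPα scored 45.4 in control and 97.7 after IL-4 (2.15-fold), and IRF8 29.5 and 41.9 (1.42-fold). JUNB had no peak there in control and scored 20.4 after IL-4, which ranked 3 of the 912 IL-4-only JUNB peaks of the genome. All 3 factors were thus listed together there only after IL-4, and the window printed above as Arg1 -2.9 kb held a STAT6-type match with 4 bases between its arms and no AP-1 letters.

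The promoter of Arg1 differed by factor. At 0.7 kb upstream IRF8 scored 97.7 in control and 91.0 after IL-4 (0.932-fold), C/EBPα had no peak in control and 6.6 after IL-4, and JUNB had 6.87 in control and none after IL-4. The highest C/EBPα peak of the locus lay 16.1 kb downstream, beyond Arg1 in the last intron of its neighbour Med23, a Mediator subunit gene. C/EBPα scored 99.7 and 138 there (1.38-fold) and IRF8 28.8 and 46.6 (1.62-fold). At 23.0 kb upstream C/EBPα scored 65.0 and 91.9, and IRF8 23.6 and 36.7 (1.55-fold). Each of the 3 distal regions with both factors had a higher score of both after IL-4, whereas IRF8 at the promoter was slightly lower. The remaining peaks were an IRF8 peak in a Med23 exon 25.4 kb downstream (8.04 and 9.36), and 4 weak IL-4-only peaks between 53.4 and 131.5 kb upstream with scores from 3.97 to 7.62.

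Retnla (chr16:48842609-48844461, plus strand) had no peak near its TSS and no JUNB peak, and its main difference was an IRF8 peak 11.0 kb upstream. IRF8 scored 20.1 in control and 81.5 after IL-4 there, a 4.06-fold difference that 1.23% of all IRF8 pairs reached. C/EBPα had no peak in that region, and the window printed above as Retnla -11.0 kb held a STAT6-type match with 3 bases between its arms and an ETS-IRF composite match. The neighbouring region 8.8 kb upstream went the other way for IRF8, 61.8 and 48.5 (0.785-fold), with C/EBPα at 16.3 and 15.7. The order of the 2 IRF8 peaks was therefore the reverse after IL-4 of that in control. A weak IRF8 peak 11.3 kb downstream, on an L1 repeat, was IL-4-only (7.13).

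Mrc1 (chr2:14229414-14332023, plus strand) had a region 24.8 kb upstream that carried C/EBPα and IRF8 only after IL-4. It lies in an intron of the neighbouring gene Tmem236. C/EBPα had no peak in control and 22.4 after IL-4 (rank 91 of 5404 IL-4-only C/EBPα peaks), and IRF8 had none and 12.0. The window printed above as Mrc1 -24.8 kb held 3 STAT6-type matches, 2 of them with 4 bases between the arms, and an ETS-IRF composite match.

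The strongest peak at Mrc1, 22.4 kb upstream in the same intron, was already present in control. IRF8 scored 174 and 154 (0.883-fold), the highest score at any of the 8 genes, while C/EBPα scored 9.64 and 19.7 (2.05-fold) and JUNB 8.82 in control and none after IL-4. C/EBPα was thus listed only after IL-4 at 24.8 kb upstream and had a higher score at 22.4 kb, while IRF8 appeared in the first region and was slightly lower in the second.

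Near the Mrc1 TSS the peaks differed by condition within a short stretch. At 0.7 kb upstream C/EBPα scored 15.1 and 13.4 (0.887-fold) and IRF8 17.2 and 13.7 (0.801-fold). At 0.1 kb upstream an IRF8 peak was IL-4-only (19.2, rank 182 of 12804) and a C/EBPα peak was control-only (5.38). The adjoining region 0.2 kb downstream held an IL-4-only C/EBPα peak (10.8), so C/EBPα was listed on either side of the TSS in different conditions. The control peak ended at 14229370 and the IL-4 peak started at 14229414, so the single-condition calls of C/EBPα here rest on the overlap rule. In the first intron an IRF8 peak 4.8 kb downstream was lower after IL-4, 29.0 and 11.3 (0.389-fold), on an LTR16C repeat, and another, at 15.1 kb in intron 3 of 29, was nearly equal (32.9 and 31.1). Of the other C/EBPα peaks at Mrc1, 3 between 1.9 and 12.9 kb downstream were IL-4-only (8.86, 3.88 and 3.87), 2 at 8.3 and 15.1 kb were control-only (7.95 and 7.06), and a pair 12.6 kb upstream scored 3.73 and 5.19.

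Tgm2 (chr2:158116405-158146392, minus strand) had strong peaks with nearly equal scores in both conditions. Its highest peak, IRF8 20.4 kb upstream, scored 115 and 107 (0.924-fold), with C/EBPα at 11.7 and 14.8 in the same region. The highest C/EBPα peak, 9.4 kb upstream, scored 50.6 and 45.1 (0.891-fold), and IRF8 13.6 kb upstream 30.7 and 30.2. The only single-condition peak scoring at least 10 was of IRF8 in intron 3 of 12, 10.3 kb downstream, with none in control and 16.8 after IL-4. Its window, printed above as Tgm2 +10.3 kb, held a STAT6-type and an ISRE-type match.

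At 13.1 kb downstream of the Tgm2 TSS all 3 factors were present in both conditions: C/EBPα scored 23.2 and 16.6, IRF8 15.6 and 23.1, and JUNB 8.74 and 5.26 (0.602-fold). IRF8 was the only factor with the higher score after IL-4 there. The peak nearest the TSS was an IL-4-only C/EBPα peak 0.8 kb downstream (5.64), and a JUNB peak 21.7 kb upstream was control-only (6.15). The other 2 IRF8 peaks, 9.4 and 7.7 kb upstream, were IL-4-only and weak (5.03 and 4.42).

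Pdcd1lg2 (chr19:29410919-29472927, plus strand) had an IRF8 peak over its TSS only after IL-4. The peak, centred 21 bp upstream of the TSS, had no counterpart in control and scored 36.7 after IL-4, rank 22 of the 12804 IL-4-only IRF8 peaks. No C/EBPα peak covered the TSS in either condition, and the window printed above as Pdcd1lg2 TSS held a STAT6-type match with 4 bases between its arms.

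Within the gene, both C/EBPα and IRF8 had intronic peaks with higher scores after IL-4, at different places. IRF8 8.7 kb downstream scored 15.6 and 52.1 (3.33-fold). Next to it, at 9.2 kb, C/EBPα scored 29.8 and 59.2 (1.99-fold) while IRF8 scored 32.8 and 27.8 (0.846-fold), so the 2 factors differed in opposite directions there. C/EBPα 31.8 kb downstream scored 5.58 and 28.1 (5.04-fold), a fold that 0.487% of all C/EBPα pairs reached, with IRF8 at 14.3 and 18.5. At 37.5 kb, on an RLTR14 repeat, both were higher: C/EBPα 13.8 and 27.9 (2.02-fold) and IRF8 19.8 and 43.5 (2.19-fold). At 51.8 kb C/EBPα scored 32.4 and 56.9.

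Other strong IRF8 peaks of Pdcd1lg2 scarcely differed. The highest, 20.0 kb downstream, scored 88.5 and 83.8 (0.948-fold), and 1 at 52.9 kb 44.2 and 49.0. Under the first of these a C/EBPα pair scored 11.1 and 4.5 (0.406-fold), and a neighbouring pair 4.77 and 5.58. No JUNB peak was assigned to Pdcd1lg2. The rest were a C/EBPα pair 3.8 kb downstream (7.62 and 8.11), one 53.3 kb downstream (16.9 and 19.2), and weak upstream peaks: an IRF8 pair at 19.5 kb (6.85 and 4.59) and IL-4-only peaks of C/EBPα at 10.3 kb (4.59) and of IRF8 at 7.8 kb (5.25).

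Cdh1 (chr8:106603350-106670247, plus strand) had its differences in intron 2 of 15. At 9.0 kb downstream C/EBPα scored 20.7 in control and 82.0 after IL-4 (3.96-fold, reached by 1.04% of C/EBPα pairs) and IRF8 13.8 and 35.6 (2.58-fold). It was the only region of the 8 genes other than Pdcd1lg2 +37.5 kb in which paired peaks of both factors were at least 2-fold higher. Its window held a STAT6-type match with 4 bases between the arms. Closer to the TSS, at 8.0 kb, C/EBPα scored 25.1 and 51.6 (2.06-fold), and IRF8 had none and 5.16. At 21.5 kb, C/EBPα scored 34.1 and 45.9 (1.34-fold), and IRF8 none and 7.13. The peak nearest the TSS was a weak IL-4-only IRF8 peak 2.2 kb upstream (4.72), and Cdh1 had no JUNB peak.

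Fn1 (chr1:71585473-71653234, minus strand) stood apart from the other 7 genes. It had no IRF8 or JUNB peak and no peak in control. Its 2 peaks were C/EBPα after IL-4, in exon 20 of 44 (29.0 kb downstream, score 4.15) and exon 29 of 44 (46.4 kb downstream, score 2.4), both near the lower end of the list, whose median score was 11.2.

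Ch25h (chr19:34473783-34475148, minus strand) had 47 peaks, the most of the 8 genes, in 14 regions that all lay downstream of its TSS. The strongest were bound in both conditions. At 72.2 kb downstream IRF8 scored 129 and 141 (1.09-fold), C/EBPα 60.5 and 61.8 (1.02-fold), and JUNB 10.6 and 3.92 (0.37-fold), so the largest fold was that of JUNB. At 32.8 kb C/EBPα scored 115 and 128 (1.11-fold) and IRF8 67.1 and 32.7 (0.488-fold), the reverse of the general lean. At 54.3 kb C/EBPα scored 69.6 and 105 (1.51-fold), IRF8 48.5 and 54.2, and JUNB 7.91 in control and none after IL-4.

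JUNB was listed at partly different regions of Ch25h in control and after IL-4. In the region 3.1 kb downstream it scored 7.36 in control and none after IL-4, while IRF8 there scored 16.2 and 30.7 (1.9-fold). At 29.3 kb it had no control peak and scored 9.59 after IL-4 (rank 58 of 912), and C/EBPα scored 13.5 and 25.3 (1.88-fold) and IRF8 12.8 and 19.9 (1.55-fold). Both of these windows held the AP-1 letters TGAGTCA. The 2 regions where all 3 factors were listed together after IL-4 but not in control were thus Arg1 -2.9 kb and Ch25h +29.3 kb.

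The other peaks of Ch25h were weaker. IL-4-only C/EBPα peaks lay 64.0 kb (11.4), 67.7 kb (10.7), 39.7 kb (6.09) and 88.4 kb (4.11) downstream, and at the last of these IRF8 scored 4.49 and 9.56 (2.13-fold). C/EBPα was lower after IL-4 at 2.7 kb (16.8 and 9.87, 0.589-fold) and at 85.0 kb (12.8 and 7.4, 0.579-fold). The peak nearest the TSS was IRF8 at 1.9 kb, over the transcription end of this short gene (7.16 and 8.91). At 10.5 kb C/EBPα scored 9.92 and 7.86 and IRF8 22.5 and 23.6, at 30.2 kb C/EBPα 27.4 and 23.8, and at 85.0 kb IRF8 5.39 and 8.21. At 54.3 kb a further weak control peak of C/EBPα (8.49) and of IRF8 (8.6) lay under an IL-4 peak already paired.

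**Figure D4:**
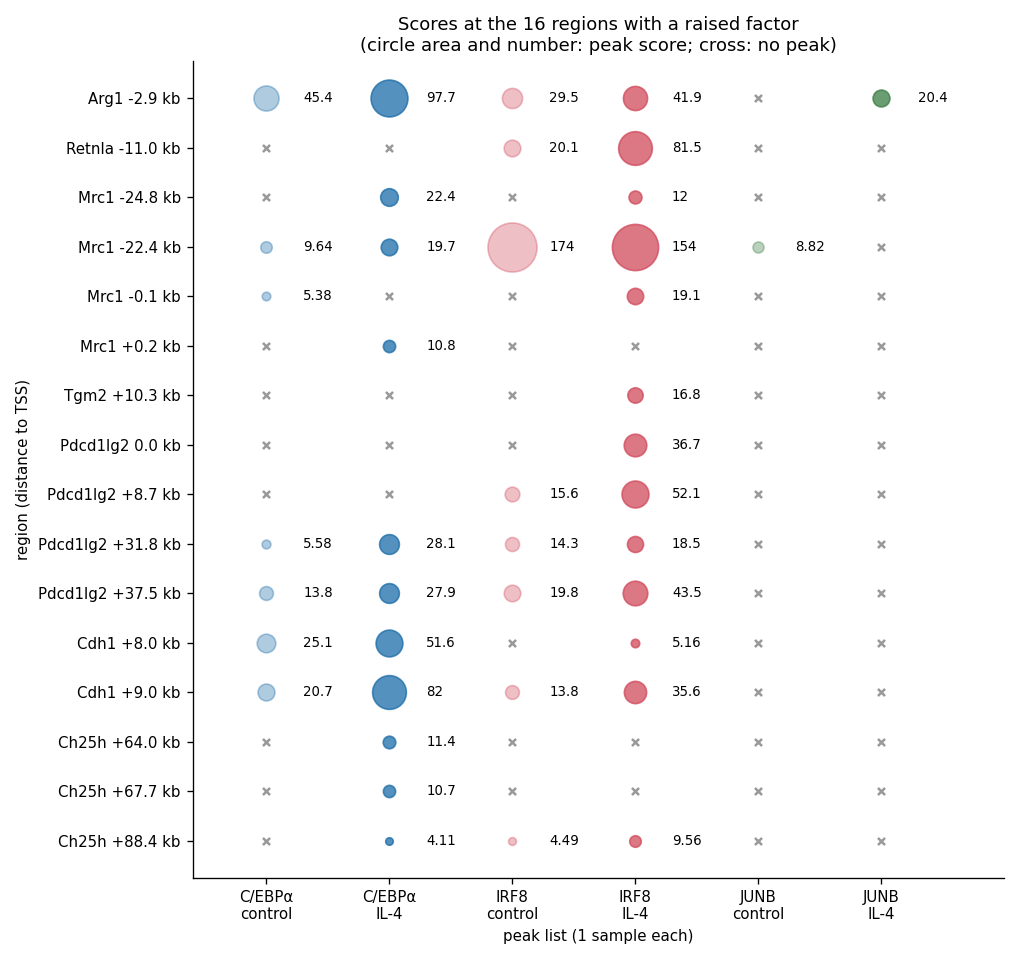
The 16 regions with a raised factor (rows, gene and distance to the TSS) in the 6 lists (columns, 1 sample each). Circle area and the printed number give the peak score and a cross marks no peak; Arg1 -2.9 kb had no JUNB peak in control and 20.4 after IL-4, and Pdcd1lg2 at the TSS had IRF8 only after IL-4 (36.7).

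To read the single loci against the lists, each factor was given its highest score per condition in each merged region. A factor was called raised when that score was at least 2-fold higher after IL-4. It was also called raised when the IL-4 score was at least 10 and the region held no control peak of it. This class was set after the values had been seen. It held 16 of the 65 regions, against 10.5% of all 60856 regions of the series. IL-4-only peaks scoring at least 10 numbered 4 of 45 for C/EBPα (all peaks, 3.24%), 4 of 46 for IRF8 (all peaks, 3.11%) and 1 of 4 for JUNB (all peaks, 2.06%). Control-only peaks of that size numbered 0 of 34 for C/EBPα (all peaks, 2.06%), 0 of 33 for IRF8 (all peaks, 1.79%) and 0 of 7 for JUNB (all peaks, 13.6%). With so few control peaks, a count of 0 cannot be told apart from the shares of the lists.

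Co-binding was more common at the 8 genes than over all regions in both conditions. In control 20 of the 43 bound regions had 1 factor (46.5%), 18 had 2 (41.9%) and 5 had 3 (11.6%), whereas over all bound regions the shares were 68.1%, 26.5% and 5.38%. After IL-4 the counts were 36, 23 and 4 of 63 (57.1%, 36.5% and 6.35%), against 70.4%, 26.6% and 3.08% over all. Of the 22 regions of the 8 genes with no control peak, 21 had 1 factor after IL-4, and the other was Mrc1 -24.8 kb.

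STAT6-type letters were more frequent in raised regions than in the others. With 3 or 4 bases between the arms they occurred in 15 of 65 windows (23.1%; all windows of the series, 14.5%). Among raised regions of the 8 genes 8 of 16 held one (50.0%), against 7 of 49 others (14.3%). Over all raised regions of the series the share was 31.5%, against 12.5% of the rest. For the form with 4 bases alone the shares were 37.5% and 4.08% at the 8 genes, and 21.3% and 6.1% over the series. The difference at the 8 genes thus has the same direction as the one over all regions, to which they belong.

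For the other patterns the raised and other regions of the 8 genes differed in either direction, on few regions. Over the 65 windows, ISRE-type letters were found in 15.4% (all windows, 7.59%), C/EBP letters in 15.4% (18.8%), ETS-IRF composite letters in 9.23% (11.0%) and AP-1 letters in 7.69% (11.0%). In raised against other regions of the 8 genes, the C/EBP letters occurred in 1 of 16 and 9 of 49, ISRE-type in 1 of 16 and 9 of 49, and AP-1 in 1 of 16 and 4 of 49. ETS-IRF composite letters were in 3 of 16 raised regions (18.8%) and 3 of 49 others (6.12%), the same direction as STAT6-type letters. Over the whole series the raised and other shares of these patterns lay close together, at 18.5% and 18.8% for C/EBP, 8.98% and 7.43% for ISRE type, 10.5% and 11.0% for AP-1, and 9.95% and 11.1% for ETS-IRF.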

How the data were processed

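Wild type mouse BMDMs were analysed by ChIP-seq for C/EBPα, IRF8 and JUNB, 1 control and 1 IL-4 sample each, grouped by their labels. Per the submitters' processing notes the authors used BWA 0.7.10, SAMtools 0.1.19, HOMER 4.2 and MACS2 2.0.10 on the mm10 assembly. Peaks on the ENCODE blacklist had been removed, peaks had been called in each sample under a q-value limit, and HOMER had assigned the nearest TSS. Libraries were made with an Ovation Ultralow or a TruSeq kit. The kit of each sample, the control library and the read number were not given in the sources used here. Depth is therefore unknown, and depth, kit and IL-4 cannot be told apart. The peak score deposited by the authors carries no stated unit and was read as a −log10 q-value or p-value from its values (lowest score 1.3 to 1.76 per list). Between 1 and 48 peaks per list scored under 2, lower than the q-value limit in the methods would allow on that scale, so the reading is uncertain. The deposited distance to the TSS and the annotation were used as given. The files' TSS lay within 57 bp of that in RefSeq (GRCm38) for all 8 genes, and 0 peaks ended past their chromosome.

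Peaks overlapping by at least 1 bp were matched in order of their overlap, each used once. For binding by several factors, peaks of the 6 lists were merged where they overlapped. Sequences and motif matches were read from GRCm38 in 200 bp windows, in 60845 of 60856 regions with a full window. The overlap, pairing and merging steps were checked on altered copies of the control peaks and, on the real lists, against bedtools (16 of 16 checks passed). The motif step was not among these checks. Python 3.11.15, numpy 2.4.6, pandas 2.3.3, pysam 0.24.0 and matplotlib 3.10.9 were used.

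All 8 genes were named. In full were given, per gene and factor, the highest peak, the peak nearest the TSS, single-condition peaks with a score of at least 10 and pairs at least 2-fold different. Sequences were those of the highest IL-4-only region and the highest region per gene with a score of at least 10. Of these 12, 1 is not reported here and the others are printed, with 2 more of Pdcd1lg2 chosen after their values were seen. The lists of other IL-4-response genes (20), classical activation genes (10), macrophage genes (8) and genes of other cell types (15) were compared by counts. Members and lists were chosen with earlier results of these data known. Alternatives changed the overlap, score limit, fold, rank matching, scaling, distance limit and gene assignment.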

Additional observations from a re-analysis of the deposited data

Results flagged for a closer look

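The changes in the number of peaks at the 8 genes had opposite signs between factors. After IL-4 there were 11 more C/EBPα peaks and 13 more IRF8 peaks, while the change for JUNB was -3. With 1 sample per list the difference was not tested. The whole JUNB list was shorter after IL-4 as well (3940 and 2325 peaks), as the whole IRF8 list was longer (37525 and 42076), and the part of this in the counts at the 8 genes was not tested.

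At 2 promoters, factors were listed in opposite conditions. At Arg1, 0.7 kb upstream, a C/EBPα peak was IL-4-only (6.6) and a JUNB peak was listed only in control (6.87). Both scores were below the median of the C/EBPα (11.2) and JUNB (7.88) lists they came from. At Mrc1, 0.1 kb upstream, the IL-4-only peak was of IRF8 (19.15) and the control-only peak of C/EBPα (5.38). C/EBPα was listed close by after IL-4 as well (10.77). Its control peak ended at 14229370 and its IL-4 peak started at 14229414. The overlap rule of 1 bp kept them apart, so C/EBPα was not absent from this promoter after IL-4. None of these differences was tested.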

How the results depend on the processing

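Of 90 counts recomputed under an alternative, 71 stayed within 1.5 times the reported value and 19 did not. A count has no sign, so none could reverse. The 15 folds of named peaks, each at least 2-fold, were recomputed only by dividing scores by the list median. The list medians had an IL-4 to control ratio of 1.0 (C/EBPα), 0.929 (IRF8) and 0.788 (JUNB). Ratios this close to equal cannot turn a 2-fold difference around, so the kept directions do not show how stable the folds are. Requiring overlap of 50% of the shorter peak, matching the lists by rank, and keeping peaks within 100 kb left every count within 1.5 times. Assignment to the nearest GENCODE TSS, which counts non-coding transcripts near these loci, gave C/EBPα 20 control, 23 IL-4 and 6 IL-4-only peaks, 17 control, 27 IL-4 and 1 control-only peaks for IRF8, and 2 control, 1 IL-4, 0 IL-4-only and 1 control-only peaks for JUNB. With protein-coding GENCODE TSSs alone, an alternative chosen after seeing the data, C/EBPα had 6 control-only peaks and IRF8 had 50 control and 3 control-only peaks. A score of at least 5 gave 1 control-only IRF8 peak. A fold of 2 gave 6 C/EBPα pairs higher and 1 lower, 5 IRF8 pairs higher and 1 JUNB pair lower. Dividing scores by the list median gave 1 JUNB pair lower. The cause was not tested where the construction does not show it. No paired analysis was possible because each factor and condition had only 1 sample, and no replicate could be left out.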

Other observations

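Other genes of the IL-4 response were compared by the same counts. At the 20 listed genes C/EBPα had 98 control and 118 IL-4 peaks, with 32 IL-4-only (27.1%) and 13 control-only (13.3%), while 26 of 84 pairs (31.0%) were at least 1.5-fold higher and 14 (16.7%) lower. The whole C/EBPα list had 22.0% IL-4-only, 21.4% control-only, 17.7% higher and 17.8% lower. IRF8 had 124 and 130 peaks, with 32 IL-4-only (24.6%), 23 control-only (18.5%) and, of 99 pairs, 31 (31.3%) higher and 15 (15.2%) lower. The whole IRF8 list had 30.4% IL-4-only, 21.4% control-only, 23.6% higher and 17.5% lower, so the IL-4-only share at these genes was below that of the list. JUNB had 21 and 19. Socs1, a feedback inhibitor of cytokine signalling, had 5 IRF8 peaks in control and 14 after IL-4, of which 9 were IL-4-only with scores up to 34.6. Cish, another inhibitor of that family, had 1 C/EBPα peak in control and 5 after IL-4, the highest IL-4-only one at 12.2. Irf4, a transcription factor of the IL-4 response, had 3 and 6 C/EBPα peaks, with an IL-4-only peak of 39.0, and both an IL-4-only (13.3) and a control-only (10.4) IRF8 peak.

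IL-4-only peaks with a score of at least 10 were also found for Mgl2, a lectin (C/EBPα 11.5 and IRF8 13.2), for Igf1, a growth factor (C/EBPα 14.5), for Flt1, a VEGF receptor (C/EBPα 10.1 and IRF8 15.5), and for Il4ra, the IL-4 receptor chain (IRF8 13). Control-only peaks of that size were found for the transcription factor Egr2 (IRF8 10.5), for F13a1, which encodes a coagulation factor subunit (C/EBPα 10.4 and IRF8 10.5), for the proton pump subunit gene Atp6v0d2 (JUNB 10.3), and for the nuclear receptor gene Pparg (C/EBPα 12.4 and JUNB 17.3). The highest JUNB score at Pparg was 98.9 in control and 20.1 after IL-4.

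At the 10 classical activation genes C/EBPα had 38 control and 37 IL-4 peaks, with 1 of 29 pairs (3.45%) higher and 4 (13.8%) lower. IRF8 had 42 and 44, with 10 of 37 pairs higher and 10 lower, and JUNB had 7 and 5. One of these genes, Ptgs2, which encodes the prostaglandin enzyme COX-2, had an IL-4-only C/EBPα peak with a score of at least 10 (10.4). Near the 8 macrophage genes, C/EBPα had 36 control and 35 IL-4 peaks, with 4 of 26 pairs higher (15.4%) and 1 lower. IRF8 had 35 and 31 there, with 6 of 27 pairs higher (22.2%) and 3 lower, and JUNB had 9 and 3. Near the 15 genes of other cell types, C/EBPα had 9 and 10 peaks, with 1 of 7 pairs higher and 2 lower. IRF8 had 16 and 18 there, with 5 of 14 pairs higher (35.7%) and 1 lower, and JUNB had 1 and 0.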
